A study of Homo sapiens with 27 samples.

Results

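Epithelial mesenchymal transition (EMT) is the shift of a cell from an adherent epithelial state to a motile mesenchymal one, and 10 of its regulators and markers are described here across 3 human prostate cancer cell lines with and without targeting of RIPK2. The 10 genes were the rows carrying the symbols CDH1, EPCAM, GRHL2, ESRP1, ESRP2, CDH2, VIM, ZEB1, ZEB2 and SNAI2 in the read count tables. All 10 were listed in each of the 3 tables, out of 27546 distinct symbols over the tables together. The lines were 22Rv1, established from a xenograft, and DU145 and PC3, both established from metastases. Each line had 9 libraries, 3 from cells with the control guide (genotype labelled WT) and 3 from each of 2 RIPK2 knockout populations. One population was made with gRNA 10 in every line, and the other with gRNA 1 for 22Rv1 but gRNA 2 for DU145 and for PC3. RIPK2 is a kinase that relays signals of the bacterial sensors NOD1 and NOD2. No agent or time point is given for any group, nor is it said whether a knockout population was a clone or a pool or whether replicates were separate cultures, so the p-values measure the spread between these samples, which may be technical.

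In an epithelium, E-cadherin (CDH1) joins neighbouring cells through catenins, and EPCAM is a second surface adhesion protein. GRHL2 is a transcription factor that keeps junction genes on, and ESRP1 and ESRP2 are RNA-binding proteins that direct splicing towards epithelial isoforms. ZEB1, ZEB2 and SNAI2 (SLUG) are repressors that bind E-box sequences in the promoters of epithelial genes, CDH1 among them, and GRHL2 and ZEB1 repress each other. N-cadherin (CDH2) and the intermediate filament vimentin (VIM) are the usual mesenchymal markers. In prostate cancer, loss of E-cadherin and gain of N-cadherin are read as signs of this transition.

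Promoter windows of CDH2, ZEB2 and ZEB1 are printed because CDH2 and ZEB2 had some of the widest differences between the guides and ZEB1 held the E-box form CAGGTG. They run from 250 bases before to 50 after the start that RefSeq gives on GRCh38.p14, and 4 of the 10 genes had an entry, VIM being the fourth. CDH2 lies at chr18:28177081-28177380 on the minus strand, ZEB2 at chr2:144520070-144520369 on the minus strand and ZEB1 at chr10:31318167-31318466 on the plus strand.
CDH2: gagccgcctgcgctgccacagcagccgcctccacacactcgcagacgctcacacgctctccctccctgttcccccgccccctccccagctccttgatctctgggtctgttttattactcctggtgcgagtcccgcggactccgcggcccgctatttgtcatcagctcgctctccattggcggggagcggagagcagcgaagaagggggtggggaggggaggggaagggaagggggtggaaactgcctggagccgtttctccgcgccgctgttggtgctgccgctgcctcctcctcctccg
ZEB2: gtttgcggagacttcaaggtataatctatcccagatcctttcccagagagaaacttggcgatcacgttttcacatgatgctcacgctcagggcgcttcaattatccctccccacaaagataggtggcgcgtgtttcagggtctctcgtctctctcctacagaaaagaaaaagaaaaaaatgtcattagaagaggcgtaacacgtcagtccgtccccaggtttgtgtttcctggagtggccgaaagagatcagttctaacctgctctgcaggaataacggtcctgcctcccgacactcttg
ZEB1: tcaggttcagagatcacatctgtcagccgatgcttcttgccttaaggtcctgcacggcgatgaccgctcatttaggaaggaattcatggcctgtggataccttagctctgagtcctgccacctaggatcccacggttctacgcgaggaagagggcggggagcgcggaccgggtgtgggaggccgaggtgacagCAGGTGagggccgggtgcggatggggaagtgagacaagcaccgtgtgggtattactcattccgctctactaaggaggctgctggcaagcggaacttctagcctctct
Capitals mark the only match to CAGGTG, searched on both strands (CACCTG is its reverse complement), which began 57 bases before the start of ZEB1. The windows of CDH2, ZEB2 and VIM held no match, and other forms of the E-box were not searched. Of all 35116 promoter windows of this length, 20.6% held at least 1 match, so its presence in ZEB1 is a description only.

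RIPK2 itself was read first in every group, as CPM (normalised read counts, adjusted for library size and composition) on 1 scale for all 27 libraries. In 22Rv1 it was at 16.1 ± 1.16 CPM with the control guide (SD, n = 3, as for all group means), 8.30 ± 0.592 with gRNA 1 and 5.27 ± 0.184 with gRNA 10. DU145 had 41.0 ± 2.61 with the control guide, 11.4 ± 1.68 with gRNA 2 and 33.9 ± 1.39 with gRNA 10. In PC3 the means were 64.8 ± 1.85, 21.9 ± 1.03 with gRNA 2 and 28.9 ± 1.59 with gRNA 10. RIPK2 fell in 5 of the 6 guide contrasts, with adjusted p of 8.76e-05 or less by the edgeR quasi-likelihood test. The exception was DU145 with gRNA 10, where the log2 fold change was -0.29 (SE 0.111, adjusted p = 0.0614, edgeR), although its 3 libraries all lay below the 3 control libraries. An edited gene can still be transcribed, so the RNA level does not measure the protein, and the results of DU145 gRNA 10 refer to libraries labelled knockout whose RIPK2 RNA stayed close to control.

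Library totals ran from 17958558 to 20650819 counts, and 3 counts, taken as the floor that an empty library allows, came to between 0.145 and 0.167 CPM. Of 6 luminal prostate markers, all were at 1 CPM or more in 22Rv1 controls, 1 in those of DU145 and 4 in those of PC3. Their summed level was 1512 to 1530.1 CPM in 22Rv1, 16.8 to 18.7 in DU145 and 1597 to 1659.7 in PC3, where it was mostly HOXB13. KLK3 was at 19.4 ± 1.17 CPM in 22Rv1 controls and at 0 in DU145 and PC3 controls. In 22Rv1 gRNA 1, replicate 3 had 16.7% of its counts on mitochondrial genes against 2.10% and 1.92% in replicates 1 and 2. In DU145 gRNA 2, replicate 3 had 2.89% against 1.75% and 2.12%, and this library also had by far the highest EPCAM and VIM of its group. The DU145 gRNA 10 libraries had 2.46% to 2.77%. Both libraries stand apart, so many results of the 10 genes are given with and without them, and the others with all libraries. The DU145 library was set apart in part by values of the 10 genes themselves, so calls gained without it are a description only. What sets them apart was not tested.

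The control libraries placed 4 of the 5 epithelial genes highest in 22Rv1, EPCAM being the exception. CDH1 (chr16:68737225-68835548, plus strand, GRCh38 by GENCODE 29, as are all gene positions here) was at 419, 406 and 393 CPM in the 3 control libraries of 22Rv1. It was at 23.0, 18.1 and 17.4 CPM in those of DU145 and at 15.9, 15.98 and 17.9 CPM in those of PC3. Every 22Rv1 library was above every DU145 and PC3 library, while DU145 and PC3 overlapped. On the log2 scale, 22Rv1 exceeded DU145 by 4.38 (SE 0.0929, adjusted p = 6.34e-16, edgeR over the 9 control libraries) and PC3 by 4.60 (SE 0.0952, adjusted p = 3.43e-16). DU145 exceeded PC3 by 0.22 (SE 0.0989, adjusted p = 0.0472), and that call was lost without DU145 control replicate 1 (0.09, adjusted p = 0.365), and likewise without PC3 control replicate 1 or 2 or 22Rv1 control replicate 1 or 3.

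GRHL2 (chr8:101492432-101669726, plus strand) set 22Rv1 apart from both other lines. Its 22Rv1 controls had 2231, 2224 and 2131 counts, against 0, 2 and 1 in DU145 and 3, 6 and 4 in PC3. The ratio of 22Rv1 to DU145 was 2377 (exact 95% counting interval 813 to 11531) and to PC3 490.5 (287 to 922). Between PC3 and DU145 the ratio was 4.85 (1.33 to 26.5), at a level near the floor in both. Sequencing reads carry no molecular identifiers here, so such intervals cover counting error only.

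The paired splicing regulators behaved differently from each other across lines. ESRP1 (chr8:94641074-94707466, plus strand) was at 150.4 ± 9.06 CPM in 22Rv1 controls, 18.8 ± 0.896 in DU145 and 0.0535 ± 0.0537 in PC3, where the libraries held 2, 1 and 0 counts. DU145 exceeded PC3 in ESRP1 by a ratio of 364 (124 to 1766, counting error only). ESRP2 (chr16:68229111-68238102, minus strand) was at 97.9 ± 7.23, 39.3 ± 0.777 and 62.2 ± 1.19 CPM in the same order, so PC3 without ESRP1 transcripts above the floor held more ESRP2 than DU145 (DU145 minus PC3 on the log2 scale -0.67, SE 0.0693, adjusted p = 1.96e-07, edgeR). EPCAM (chr2:47345158-47387601, plus strand) hardly separated the lines, at 54.8 ± 6.21 CPM in 22Rv1, 56.2 ± 1.80 in DU145 and 43.7 ± 1.96 in PC3. Its 22Rv1 minus DU145 difference was -0.04 (SE 0.0788, adjusted p = 0.655, edgeR), and without 22Rv1 control replicate 2 it was -0.13 with an adjusted p of 0.0287.

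Mesenchymal markers were ordered the other way, with one exception in DU145. VIM (chr10:17228259-17237593, plus strand) was at 12.9 ± 1.02 CPM in 22Rv1 controls, 604 ± 17.8 in DU145 and 1569 ± 32.8 in PC3, with no overlap between any 2 lines. CDH2 (chr18:27950966-28177446, minus strand) was at 91.5, 95.9 and 88.9 CPM in the PC3 controls and at 0.936, 0.877 and 1.13 CPM in those of 22Rv1, and no count was found in the DU145 controls. PC3 was thus at least 616-fold higher than DU145 in CDH2, set against the floor of 3 counts per library, and 22Rv1 at least 6.56-fold higher. DU145 therefore had the second highest VIM level and the lowest CDH2 level of the 3 lines.

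The repressors were nearly silent in 22Rv1. ZEB1 (chr10:31318495-31529814, plus strand) was at 0.552 ± 0.168 CPM in 22Rv1 controls (13, 12 and 7 counts), 25.02 ± 2.57 in DU145 and 31.1 ± 4.66 in PC3. PC3 exceeded DU145 in ZEB1 by a small margin (DU145 minus PC3 -0.32, SE 0.112, adjusted p = 0.0147, edgeR), and the call was lost without DU145 control replicate 3 or without PC3 control replicate 2 or 3 (adjusted p up to 0.0845). ZEB2 (chr2:144364364-144524583, minus strand) had no count in the 22Rv1 controls, 120, 101 and 86 counts in DU145 and 43, 27 and 28 in PC3. That made ZEB2 at least 29.9-fold higher in DU145 and at least 10.9-fold higher in PC3 than in 22Rv1, and DU145 exceeded PC3 by 1.44 on the log2 scale (SE 0.203, adjusted p = 1.52e-05, edgeR). SNAI2 (chr8:48917604-48921740, minus strand) had 3, 3 and 0 counts in 22Rv1, 46, 57 and 63 in DU145 and 55, 65 and 86 in PC3. Its ratio to 22Rv1 was 24.7 in DU145 (11.1 to 68.2) and 35.0 in PC3 (15.8 to 96.5), and the DU145 and PC3 libraries overlapped. DU145 minus PC3 was -0.51 (SE 0.210, adjusted p = 0.0338, edgeR), a call lost without DU145 control replicate 1 or 2 or PC3 control replicate 3 (adjusted p up to 0.198).

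Between control lines, 9 of the 10 genes differed for 22Rv1 against DU145, where 82.2% of all genes tested differed; 5 were higher in 22Rv1 (40.9% of all genes) and 4 lower (41.2%). All 10 differed for 22Rv1 against PC3 (85.9% of all genes), 5 higher (43.2%) and 5 lower (42.7%). All 10 also differed for DU145 against PC3 (82.6%), 4 higher (41.9%) and 6 lower (40.7%). Differences between lines were thus common over all genes, and nothing is read from the number of these 10 that differed. Line and any sequencing batch cannot be told apart.

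Levels were compared between genes only per kilobase of exon. In 22Rv1 controls the order of CPM per kb was CDH1 (65.7 ± 2.11), ESRP1 (30.9 ± 1.86), EPCAM (21.8 ± 2.46), GRHL2 (18.7 ± 0.546), ESRP2 (17.6 ± 1.30) and VIM (2.496 ± 0.198). CDH2, ZEB1, SNAI2 and ZEB2 followed, all at or under 0.198 CPM per kb. GRHL2 and ESRP2 overlapped between libraries and changed places when the longest transcript was used for the length.
In DU145 the order was VIM (117 ± 3.45), EPCAM (22.3 ± 0.714), ESRP2 (7.06 ± 0.140), ESRP1 (3.85 ± 0.184), CDH1 (3.16 ± 0.498), ZEB1 (2.89 ± 0.297), SNAI2 (0.762 ± 0.125) and ZEB2 (0.190 ± 0.0303). ESRP1, CDH1 and ZEB1 could not be separated from their neighbours, and CDH1 and ZEB1 changed places with the longest transcript. In PC3 it was VIM (304 ± 6.36), CDH2 (18.6 ± 0.720), EPCAM (17.3 ± 0.777), ESRP2 (11.2 ± 0.214), ZEB1 (3.59 ± 0.538), CDH1 (2.69 ± 0.181) and SNAI2 (1.08 ± 0.245). CDH2 and EPCAM overlapped there and changed places with the longest transcript. Per kilobase, CDH1 was thus the highest of the 10 genes in 22Rv1, and VIM the highest in DU145 and PC3.

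**Figure D1:**
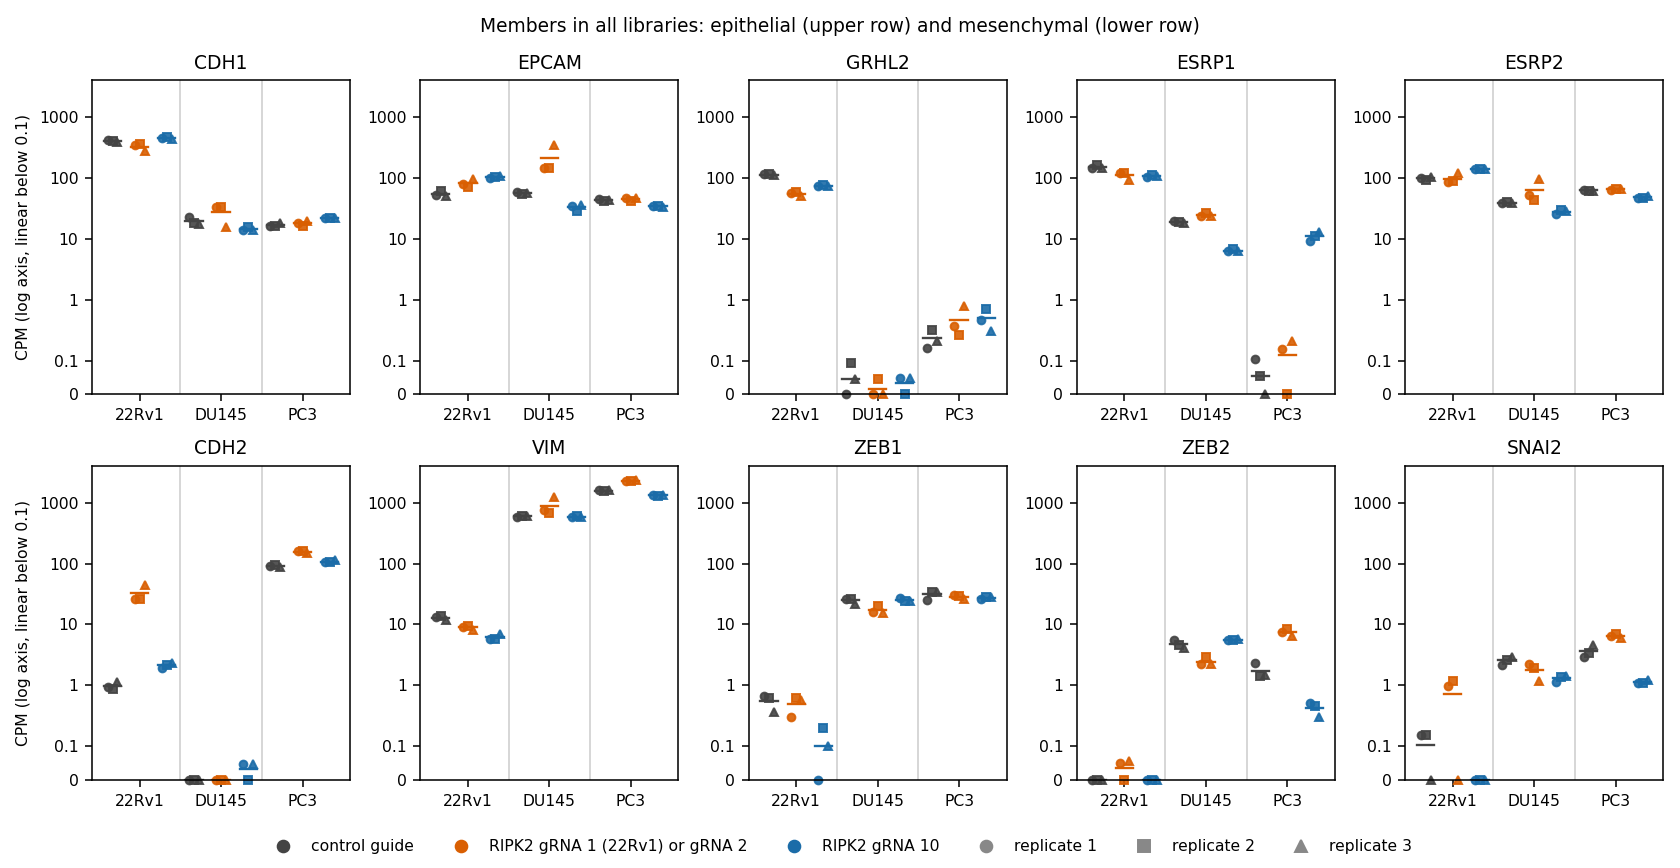
Normalised read count (CPM, log axis, linear below 0.1) of the 10 genes in all 27 libraries, epithelial genes above and mesenchymal genes below; points are libraries and bars are group means of 3. CDH1 lies at 393 to 419 CPM in 22Rv1 controls against 15.9 to 23.0 in those of DU145 and PC3, and the CDH2 and ESRP1 panels show groups that leave the level of their own line.

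Over the 6 contrasts of a RIPK2 guide with control, 50 tests of the 10 genes could be made after the filter on low counts. Of these, 16 found a higher level, 17 a lower level and 17 did not pass an adjusted p of 0.05. The filter dropped ZEB2 and SNAI2 in 22Rv1, CDH2 and GRHL2 in DU145, and GRHL2 in PC3. In 22Rv1, 6 of 8 tested genes were called with gRNA 1 (48.5% of all genes tested) and 7 of 8 with gRNA 10 (40.6%). DU145 had 6 of 8 with gRNA 2 (34% of all genes) and 2 of 8 with gRNA 10 (40%), the latter rising to 5 when gRNA 2 replicate 3 was left out of the fit. PC3 had 4 of 9 with gRNA 2 (63.6%) and 8 of 9 with gRNA 10 (73.5%). Both guide contrasts of a line share their control libraries. With gRNA 1 or 2 set against gRNA 10, the guides differed in 6 of 8 genes in 22Rv1 (35.6% of all genes), 3 being higher (18.8%) and 3 lower (16.8%). They differed in 7 of 8 in DU145 (38.8%), 5 higher (19.2%) and 2 lower (19.6%), and in 8 of 9 in PC3 (73.4%), 6 higher (36.5%) and 2 lower (36.9%).

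In no contrast with control did the tested epithelial genes all move one way and the tested mesenchymal genes all move the other. PC3 with gRNA 2 was one-sided, in that 4 of 5 tested mesenchymal genes rose (32.1% of all genes rose) and none of 4 tested epithelial genes was called in either direction. DU145 with gRNA 2 had 3 of 4 epithelial genes higher (17.1% of all genes), with 1 of 4 mesenchymal genes higher and 2 lower (17% of all genes were lower). With gRNA 10, DU145 had 1 of 4 epithelial and 1 of 4 mesenchymal genes lower (19.8% of all genes) and none higher (20.2%). All 4 epithelial changes were negative there, and all 4 were called lower without gRNA 2 replicate 3. In 22Rv1 both sides were mixed: with gRNA 1, 1 epithelial gene was higher and 3 were lower out of 5, and 1 mesenchymal gene was higher and 1 lower out of 3 (25.6% of all genes were higher and 22.9% lower). With gRNA 10 there, 2 epithelial genes were higher and 2 lower, and 1 mesenchymal gene was higher and 2 lower (20% and 20.6% of all genes). PC3 with gRNA 10 had 2 epithelial genes higher and 2 lower, and 1 mesenchymal gene higher and 3 lower (37.9% of all genes were higher and 35.6% lower). Between guides, gRNA 1 set against gRNA 10 in 22Rv1 had 3 of 3 mesenchymal genes higher (18.8% of all genes) and 3 of 5 epithelial genes lower (16.8%). Of those 3, VIM lay below control with both guides. ZEB1 had 28 against 6 counts in all, and its call was lost in 3 of 9 fits that left out 1 library. In DU145, gRNA 2 against gRNA 10 had 4 of 4 epithelial genes higher (19.2%), with 1 of 4 mesenchymal genes higher and 2 lower (19.6%). In PC3 it had 4 of 5 mesenchymal genes higher (36.5%) and none lower, with 2 of 4 epithelial genes higher and 2 lower (36.9%).

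**Figure D2:**
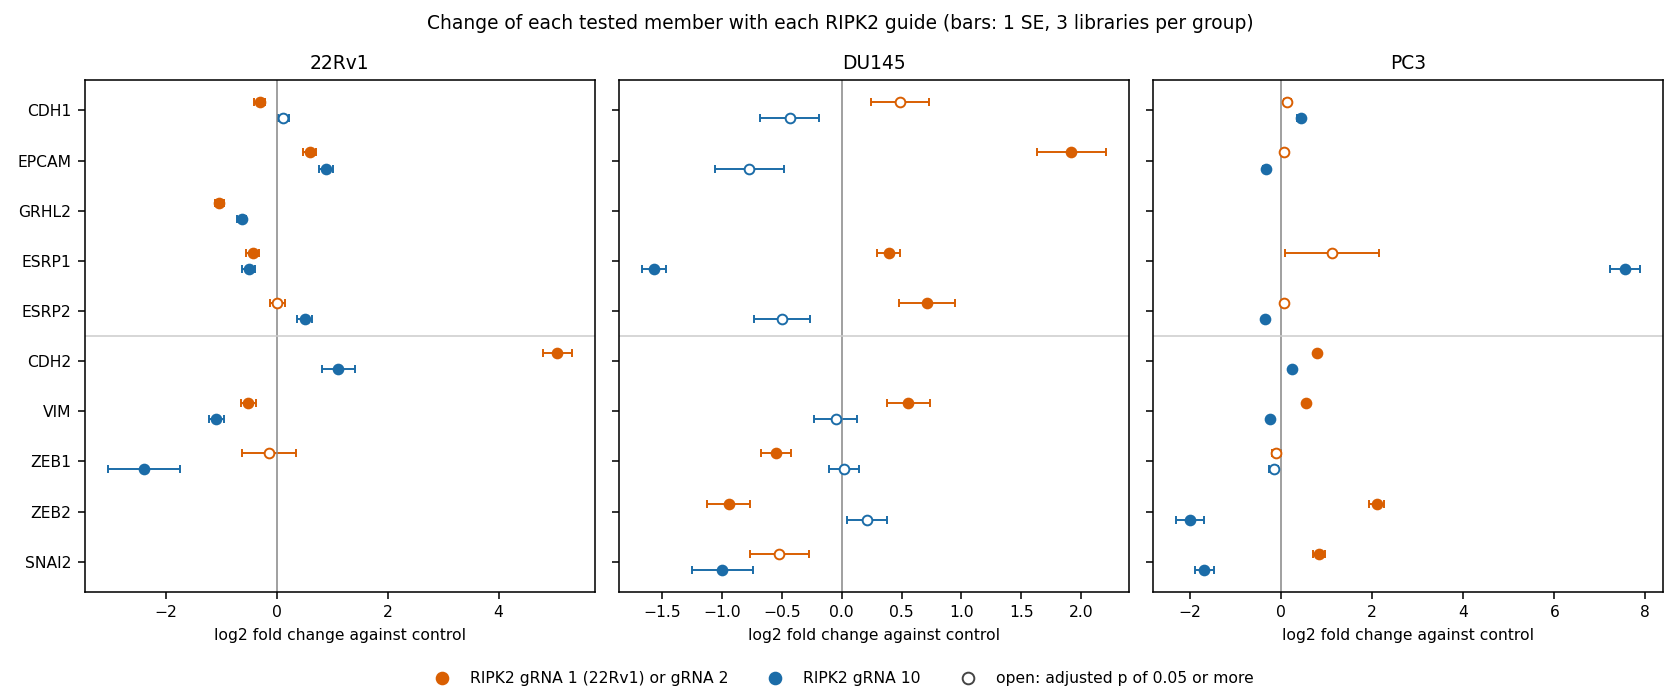
Log2 fold change against control for each tested gene, with bars of 1 SE, by line and guide; filled points have an adjusted p below 0.05 and missing points were not tested, and the axis range differs between panels. Called changes run from -2.40 for ZEB1 in 22Rv1 with gRNA 10 to 7.55 for ESRP1 in PC3 with gRNA 10. In those lines both genes passed the filter on low counts only through groups where they were higher.

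CDH2, the N-cadherin gene, rose in all 4 contrasts in which it could be tested. In 22Rv1 it was at 25.9, 26.6 and 45.2 CPM with gRNA 1 and at 1.92, 2.17 and 2.37 CPM with gRNA 10, against 0.936 to 1.13 CPM with the control guide. All knockout libraries were above all controls, and the 2 guides did not overlap. The change was 5.06 on the log2 scale with gRNA 1 (SE 0.263, adjusted p = 1.83e-07, edgeR) and 1.11 with gRNA 10 (SE 0.297, adjusted p = 0.0122), and the guides differed by 3.95 (SE 0.237, adjusted p = 8.47e-07). The highest library was replicate 3 of gRNA 1, which stands apart, and without it the rise was 4.74 (adjusted p = 1.75e-11) and the difference between guides 3.63 (adjusted p = 1.08e-10). With gRNA 10, the call was lost without control replicate 2 (1.04, adjusted p = 0.0528).

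In PC3, where CDH2 was already high, it was at 162, 161 and 148 CPM with gRNA 2 and at 105, 107 and 113 CPM with gRNA 10, above the control range of 88.9 to 95.9. These rises were 0.78 (SE 0.0442, adjusted p = 9.15e-16, edgeR) and 0.25 (SE 0.0451, adjusted p = 1.55e-05). DU145 stayed without CDH2: no count was seen with the control guide or gRNA 2, and 1, 0 and 1 counts with gRNA 10. The rise in the 22Rv1 gRNA 1 cells left CDH2 at 32.6 ± 10.9 CPM, below the 92.1 ± 3.56 CPM of PC3 controls.

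CDH1, the E-cadherin gene, moved far less than CDH2 in the 22Rv1 gRNA 1 cells, where CDH2 rose most, and more than CDH2 in PC3 with gRNA 10. In 22Rv1 it was at 346, 355 and 273 CPM with gRNA 1, all below the control range of 393 to 419, and at 444, 460.3 and 439 CPM with gRNA 10, all above it. The change with gRNA 1 was -0.31 (SE 0.104, adjusted p = 0.0309, edgeR), and that with gRNA 10 was 0.12 (SE 0.103, adjusted p = 0.378). Leaving out any single control or gRNA 10 library ended this call for gRNA 1 (adjusted p up to 0.0840), while without replicate 3 of gRNA 1 the change was -0.20 (adjusted p = 0.00993). Directly compared, gRNA 1 cells had less CDH1 than gRNA 10 cells (-0.43, SE 0.104, adjusted p = 0.00849), or -0.33 (adjusted p = 0.000498) without gRNA 1 replicate 3.

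DU145 CDH1 was at 33.1, 32.8 and 15.6 CPM with gRNA 2 and at 14.0, 15.6 and 14.1 CPM with gRNA 10, against 23.0, 18.1 and 17.4 in the controls. Replicate 3 of gRNA 2, which stands apart, fell below the controls while the other 2 libraries lay above them. With all libraries neither guide passed the test (0.48, SE 0.241, adjusted p = 0.145, and -0.43, SE 0.246, adjusted p = 0.185, edgeR). Without that library gRNA 2 gave 0.76 (adjusted p = 7.68e-05) and gRNA 10 gave -0.44 (adjusted p = 0.00276). In PC3, CDH1 rose with gRNA 10, from 16.6 ± 1.12 to 22.1 ± 0.0597 CPM (0.43, SE 0.0729, adjusted p = 4.71e-06), and was at 18.1 ± 1.60 CPM with gRNA 2 (0.14, SE 0.0756, adjusted p = 0.109; 0.21 and 0.0294 without gRNA 2 replicate 2).

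EPCAM rose with both guides in 22Rv1 and changed most in DU145 with gRNA 2. In 22Rv1 its controls were at 52.1, 61.9 and 50.4 CPM, its gRNA 1 libraries at 79.1, 72.0 and 94.3 and its gRNA 10 libraries at 99.7, 103 and 107. Neither guide overlapped the controls, and the rises were 0.59 (SE 0.120, adjusted p = 0.00225, edgeR) and 0.89 (SE 0.120, adjusted p = 0.000174). Without gRNA 1 replicate 3 the rise with gRNA 1 was 0.47 (adjusted p = 0.000615). In DU145 the controls were at 57.8, 54.2 and 56.7 CPM, gRNA 2 at 146, 145 and 343 and gRNA 10 at 35.0, 29.1 and 35.5. The guides thus lay on opposite sides of the controls, with no overlap.

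The DU145 change of EPCAM with gRNA 2 was 1.92 (SE 0.289, adjusted p = 0.000825, edgeR), and 1.38 (adjusted p = 2.31e-08) without replicate 3, which stands apart. With gRNA 10 it was -0.77 (SE 0.288, adjusted p = 0.0542), which passed the test without any 1 of the 3 gRNA 2 libraries (adjusted p = 1.73e-06 without replicate 3) and with DESeq2 (adjusted p = 0.0198). The guides differed by 2.69 (SE 0.299, adjusted p = 9.81e-05). In PC3, EPCAM fell with gRNA 10 from 43.7 ± 1.96 to 34.1 ± 0.601 CPM (-0.34, SE 0.0555, adjusted p = 2.41e-06) and was at 45.4 ± 2.87 CPM with gRNA 2 (0.07, SE 0.0537, adjusted p = 0.281). EPCAM and CDH1 therefore took opposite directions in PC3 gRNA 10 cells.

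ESRP1 rose from near 0 in PC3 with gRNA 10. The libraries held 181, 221 and 250 counts (9.30, 11.3 and 12.7 CPM), against 2, 1 and 0 counts with the control guide and 3, 0 and 4 with gRNA 2. The ratio to control was 215 (73.3 to 1046, counting error only) and the ratio to gRNA 2 was 92.6 (44.7 to 231). The fitted log2 changes were 7.55 against control (SE 0.331, adjusted p = 1.10e-16, edgeR) and, for gRNA 2 minus gRNA 10, -6.43 (SE 0.288, adjusted p = 1.55e-16). In PC3, ESRP1 passed the filter on low counts only through the gRNA 10 libraries, where it was high. These p-values are therefore no separate support for the rise. At 11.1 ± 1.71 CPM, the PC3 gRNA 10 cells were between the DU145 gRNA 10 cells (6.41 ± 0.344) and the DU145 controls (18.8 ± 0.896). ESRP1 starts 4.88 Mb from RIPK2, the targeted gene, on chromosome 8. The 44 tested genes starting within 5 Mb of ESRP1 had a median log2 change of 0.30 in PC3 with gRNA 10. Of these, 24 were higher and 9 lower, against 37.9% and 35.6% of all genes. With gRNA 2 their median was 0.06. What moved this stretch was not tested.

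In DU145, ESRP1 went in opposite directions with the 2 guides. It was at 23.7, 26.1 and 23.9 CPM with gRNA 2 and at 6.23, 6.80 and 6.19 CPM with gRNA 10, and the control libraries lay between them at 19.6, 18.9 and 17.9. The changes were 0.39 (SE 0.0953, adjusted p = 0.009995, edgeR; 0.0539 without control replicate 3) and -1.56 (SE 0.102, adjusted p = 2.78e-06). In 22Rv1 it fell with both guides, from 150.4 ± 9.06 CPM to 110.1 ± 16.9 with gRNA 1 (-0.43, SE 0.116, adjusted p = 0.0106) and 107 ± 3.92 with gRNA 10 (-0.51, SE 0.116, adjusted p = 0.00538). Without gRNA 1 replicate 3 the fall with gRNA 1 was -0.32 (adjusted p = 0.00183).

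ESRP2, the second epithelial splicing regulator, lay on the same side of control as ESRP1 with each guide in DU145, but not in 22Rv1 with gRNA 10 or in PC3 with gRNA 10. In 22Rv1 it rose with gRNA 10, at 142, 139 and 142 CPM against 98.1, 90.6 and 105 in controls (0.50, SE 0.132, adjusted p = 0.0112, edgeR), and its gRNA 1 libraries at 84.0, 87.5 and 121 CPM straddled the controls (0.01, SE 0.132, adjusted p = 0.956; -0.18 and 0.0607 without gRNA 1 replicate 3). In DU145 it was at 53.2, 43.0 and 95.9 CPM with gRNA 2 and at 25.9, 29.95 and 28.4 CPM with gRNA 10, on either side of the control range of 38.6 to 40.1. The rise with gRNA 2 was 0.71 (SE 0.234, adjusted p = 0.0385), or 0.30 (adjusted p = 0.0170) without replicate 3, and the call was lost without any 1 control library or gRNA 10 library (adjusted p up to 0.106).

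With gRNA 10 in DU145, the ESRP2 change was -0.50 (SE 0.237, adjusted p = 0.120, edgeR), and it passed the test without gRNA 2 replicate 2 (adjusted p = 0.0487) or 3 (adjusted p = 0.000218). PC3 ESRP2 fell with gRNA 10, from 62.2 ± 1.19 to 48.1 ± 2.69 CPM (-0.35, SE 0.0485, adjusted p = 1.37e-07), in the same libraries in which ESRP1 rose. CDH1 and ESRP2 start 0.508 Mb apart on chromosome 16, and in DU145 with gRNA 10 the 108 tested genes starting within 5 Mb of each had a median log2 change of -0.57, with 82 lower and 6 higher. CDH1 itself was at -0.43 and ESRP2 at -0.50 in that contrast. The neighbours' median was -0.12 with gRNA 2. What moved this stretch was not tested.

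GRHL2, the junction gene activator, fell with both guides in 22Rv1, the only line in which it passed the filter. Controls were at 116, 115 and 109.7 CPM, gRNA 1 at 56.3, 57.6 and 51.0 and gRNA 10 at 73.1, 75.6 and 74.7, so the 3 groups did not overlap. The changes were -1.03 (SE 0.0845, adjusted p = 4.81e-06, edgeR) and -0.63 (SE 0.0836, adjusted p = 0.000161), and the guides differed (-0.40, SE 0.0841, adjusted p = 0.00390). Without replicate 3 of gRNA 1 the larger change was -0.99 (adjusted p = 8.09e-08). GRHL2 starts 11.7 Mb from RIPK2 on chromosome 8. The 38 tested genes starting within 5 Mb of GRHL2 had a median of -0.19 with gRNA 1 and -0.07 with gRNA 10 in 22Rv1. PC3 had 7, 5 and 15 counts with gRNA 2 and 9, 14 and 6 with gRNA 10 against 3, 6 and 4 in controls, ratios of 2.04 (1.02 to 4.31) and 2.14 (1.08 to 4.48) from counting error alone, and DU145 had no more than 2 counts in any library.

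**Figure D3:**
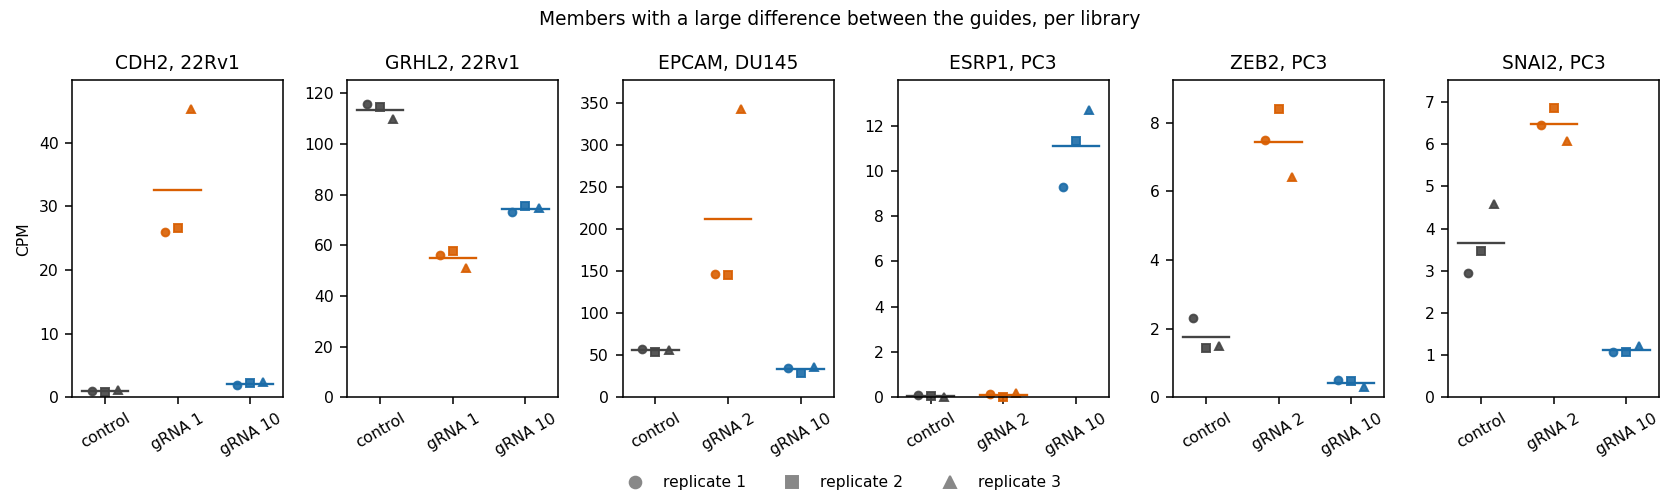
CPM per library (points, linear axes from 0, each panel with its own scale) and group means of 3 (bars) for the 6 genes and lines named above each panel, which were chosen after their values were seen. ESRP1 in PC3 lies at 9.30 to 12.7 CPM with gRNA 10 alone, and ZEB2 and SNAI2 in PC3 lie above control with gRNA 2 and below it with gRNA 10.

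VIM, the vimentin gene, fell with both guides in 22Rv1, where it was low, rose with gRNA 2 in DU145 and PC3, and fell with gRNA 10 in PC3. In 22Rv1 it was at 13.2, 13.7 and 11.7 CPM with the control guide, at 9.08, 9.48 and 8.26 with gRNA 1 and at 5.72, 5.70 and 7.02 with gRNA 10. The 3 groups did not overlap, and the changes were -0.51 (SE 0.130, adjusted p = 0.00816, edgeR) and -1.09 (SE 0.132, adjusted p = 8.89e-05). The gRNA 1 cells of 22Rv1 thus had more CDH2 and less VIM than their controls.

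PC3 VIM was at 2291, 2239.7 and 2314 CPM with gRNA 2 and at 1319.9, 1282 and 1347 CPM with gRNA 10, above and below the control range of 1531 to 1589.9. These were changes of 0.55 (SE 0.0332, adjusted p = 3.47e-15, edgeR) and -0.24 (SE 0.0332, adjusted p = 1.84e-07). In DU145 it was at 767, 673 and 1217 CPM with gRNA 2 and at 579, 601 and 587 with gRNA 10, against 584, 614 and 615 in controls. The rise with gRNA 2 was 0.56 (SE 0.179, adjusted p = 0.0348), or 0.26 (adjusted p = 0.00491) without replicate 3, and the call was lost without any 1 control library or gRNA 10 library (adjusted p up to 0.110), while gRNA 10 gave -0.05 (SE 0.179, adjusted p = 0.848).

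ZEB2 and SNAI2 moved together in PC3, up with gRNA 2 and down with gRNA 10. ZEB2 was at 2.31, 1.44 and 1.49 CPM with the control guide, 7.50, 8.39 and 6.401 with gRNA 2 and 0.514, 0.461 and 0.305 with gRNA 10. SNAI2 was at 2.95, 3.46 and 4.58 CPM, then 6.45, 6.87 and 6.09 with gRNA 2 and 1.08, 1.08 and 1.22 with gRNA 10. Neither gene overlapped between any 2 of the 3 groups.

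For ZEB2 in PC3 the changes were 2.10 (SE 0.163, adjusted p = 1.54e-12, edgeR) and -2.002 (SE 0.308, adjusted p = 1.02e-06), so the guides differed by 4.10 (SE 0.220, adjusted p = 9.77e-17). For SNAI2 they were 0.83 (SE 0.137, adjusted p = 4.17e-06) and -1.68 (SE 0.199, adjusted p = 8.04e-09), a difference between guides of 2.51 (SE 0.176, adjusted p = 6.30e-14). RIPK2 was low in both PC3 knockout groups, at 21.9 and 28.9 CPM against 64.8. With gRNA 10, the guide with less ZEB2 and SNAI2, ESRP1 and CDH1 rose while EPCAM and ESRP2 fell.

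DU145 showed a smaller and different pattern for these repressors. ZEB2 was at 2.26, 2.90 and 2.24 CPM with gRNA 2, below its controls at 5.57, 4.69 and 4.06, and at 5.54, 5.48 and 5.70 with gRNA 10. The changes were -0.94 (SE 0.177, adjusted p = 0.00270, edgeR) and 0.21 (SE 0.165, adjusted p = 0.337). SNAI2 fell with gRNA 10, from 2.59 ± 0.423 to 1.30 ± 0.153 CPM (-0.996, SE 0.256, adjusted p = 0.0106), and was at 1.78 ± 0.541 with gRNA 2 (-0.52, SE 0.246, adjusted p = 0.126).

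In 22Rv1, ZEB2 had at most 1 count in any library. SNAI2 had 19, 23 and 0 counts with gRNA 1 against 3, 3 and 0 in controls, a ratio of 7.02 (2.97 to 20.2, counting error only) to which replicate 3, the library that stands apart, added nothing, and it had no count with gRNA 10.

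ZEB1 was the least responsive of the repressors outside 22Rv1. In DU145 it fell with gRNA 2, at 15.8, 19.9 and 15.3 CPM against 26.6, 26.4 and 22.1 in controls (-0.55, SE 0.127, adjusted p = 0.00816, edgeR), and was at 27.5, 24.6 and 24.7 CPM with gRNA 10 (0.02, SE 0.125, adjusted p = 0.915). In PC3 both guides overlapped the controls, whose replicate 1 was the lowest (25.7, 34.0 and 33.6 CPM), and neither passed the test (-0.11, SE 0.0945, adjusted p = 0.341, and -0.16, SE 0.0947, adjusted p = 0.137). Without that control library the PC3 changes were -0.23 (adjusted p = 0.00462) and -0.28 (adjusted p = 0.000490). In 22Rv1 the counts were 13, 12 and 7 with the control guide, 6, 12 and 10 with gRNA 1 and 0, 4 and 2 with gRNA 10, so that control exceeded gRNA 10 by a ratio of 5.43 (2.24 to 15.9), the fitted change being -2.40 (SE 0.646, adjusted p = 0.0126). In 22Rv1, ZEB1 passed the filter on low counts only through control and gRNA 1 libraries, where it was higher. That p-value is therefore no separate support for the fall.

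Libraries did not overlap between guide and control for 6 of 8 tested genes in 22Rv1 with gRNA 1 (55.8% of all genes) and 8 of 8 with gRNA 10 (64.0%). In DU145 this held for 6 of 8 with gRNA 2 (46.7%) and 5 of 8 with gRNA 10 (68.6%), and in PC3 for 5 of 9 (67.7%) and 8 of 9 (75.02%). Nothing is read from these numbers about the 10 genes, since such separation was common over all genes.

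The change with knockout, taken as the mean of both guides minus control, was also compared between lines in 1 fit of all 27 libraries. A gene was compared only if every group of both lines averaged at least 1 count, a condition set after the values were seen. Of 6 genes compared between 22Rv1 and DU145, 2 differed (47.1% of all genes), none with a higher value in 22Rv1 (23.5%) and 2 with a lower one (23.6%), VIM by -1.05 (SE 0.173, adjusted p = 1.74e-05, edgeR) and ZEB1 by -1.01 (SE 0.410, adjusted p = 0.0462). The ZEB1 call rests on few counts in 22Rv1 and was lost in 16 of 27 fits that left out 1 library (adjusted p up to 0.157) and without both libraries that stand apart (-1.09, adjusted p = 0.0696). Without both of those libraries, EPCAM (0.39, adjusted p = 0.000765, edgeR) and ESRP2 (0.27, adjusted p = 0.00859) were called with a higher value in 22Rv1. Of 8 genes compared between 22Rv1 and PC3, 6 differed (45.3% of all genes), 2 with a higher value in 22Rv1 (23.3%) and 4 with a lower one (22%). Without both libraries that stand apart, CDH1 (-0.30, adjusted p = 0.00679, edgeR) and ESRP2 (0.33, adjusted p = 0.00109) were newly called there. Of 8 between DU145 and PC3, 2 differed (42.2%), 1 with a higher value in DU145 (21.3%) and 1 with a lower one (20.9%). The mean over guides averages opposite changes of ZEB2 and SNAI2 in PC3 and of EPCAM, ESRP1 and ESRP2 in DU145. A difference not called here therefore does not mean that the lines changed alike. With gRNA 10 alone, DU145 minus PC3 was 2.24 for ZEB2 (adjusted p = 1.45e-05, edgeR) and -0.84 for CDH1 (adjusted p = 0.00677).

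The largest between-line differences were those of ESRP1. The knockout change in PC3 exceeded that in 22Rv1 (22Rv1 minus PC3 -4.79, SE 0.662, adjusted p = 1.39e-06, edgeR) and that in DU145 (DU145 minus PC3 -4.91, SE 0.665, adjusted p = 1.51e-06). Since ESRP1 rose in PC3 with gRNA 10 only by the test against control, the mean over guides averages 2 unlike values there. ESRP1 averaged 1 count in PC3 controls, at the very limit of the condition for being compared. Both ESRP1 differences therefore rest on few counts in PC3 controls. CDH2 rose more in 22Rv1 than in PC3 (2.59, SE 0.257, adjusted p = 2.96e-08, and 2.44, adjusted p = 5.03e-13, without both libraries that stand apart). GRHL2 differed between 22Rv1 and PC3 by -1.87 (SE 0.396, adjusted p = 0.000363). It had not passed the filter within PC3, where it averaged 4.33 counts with the control guide, 9 with gRNA 2 and 9.67 with gRNA 10. The GRHL2 difference thus rests in part on few counts in PC3.

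The genes around these 10 were read from 8 lists written from general knowledge, which leave the 10 genes out. The counts that follow stand against the shares of all genes called higher and lower, which were 25.6% and 22.9% in 22Rv1 with gRNA 1 and 20% and 20.6% with gRNA 10. They were 17.1% and 17% in DU145 with gRNA 2, 20.2% and 19.8% with gRNA 10, 32.1% and 31.5% in PC3 with gRNA 2 and 37.9% and 35.6% with gRNA 10. Among epithelial junction and surface genes, PC3 with gRNA 10 had 20 of 28 tested genes higher and 5 lower (median log2 change 0.59). DSC2, a desmosomal cadherin, went from 0.569 ± 0.0794 to 50.3 ± 1.54 CPM there (6.46, SE 0.114, adjusted p = 6.20e-29, edgeR), and occludin (OCLN) rose by 2.43. The claudin genes CLDN4 and CLDN3 fell (-0.92 and -0.69). With gRNA 2, 16 rose and 6 fell (median 0.23), with desmoplakin (DSP) up by 1.57 and P-cadherin (CDH3) down from 14.7 ± 0.377 to 2.74 ± 0.579 CPM.

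DU145 with gRNA 10 showed the reverse, with 17 of 31 tested junction and surface genes lower and 3 higher (median -0.72; 19.8% of all genes fell). Claudin 7 (CLDN7), a tight junction protein, fell there from 8.74 ± 1.36 to 1.43 ± 0.147 CPM (-2.61, SE 0.186, adjusted p = 4.50e-06, edgeR), while the keratins KRT8 and KRT18 rose. With gRNA 2 the same list was split, 9 higher and 8 lower (median 0.18). In 22Rv1, 10 rose and 7 fell of 30 with gRNA 1 (median 0.13) and 7 rose and 3 fell with gRNA 10 (median 0.12; 17 called without gRNA 1 replicate 3). Envoplakin (EVPL), a cornified envelope protein, rose with gRNA 10 from 0.397 ± 0.256 to 5.89 ± 0.329 CPM.

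Other mesenchymal genes rose in 22Rv1 more often than they fell, 10 against 3 of 19 tested with gRNA 1 (median 1.16) and 11 against 1 with gRNA 10 (median 0.97), where 25.6% and 20% of all genes rose. With gRNA 1, the matricellular gene CCN2 went from 0.810 ± 0.184 to 23.8 ± 0.752 CPM (4.88, SE 0.171, adjusted p = 9.99e-09, edgeR), and fibronectin (FN1) fell from 74.6 ± 6.33 to 26.1 ± 2.16 CPM. With gRNA 10, the ectonucleotidase gene NT5E (CD73) rose by 3.12 and tenascin C (TNC) by 2.46. In PC3, FN1 fell with both guides, from 2397 ± 109 to 720.3 ± 41.5 with gRNA 2 and 431 ± 36.5 CPM with gRNA 10, although VIM rose with the first of these. The PC3 list as a whole had 11 higher and 7 lower of 25 with gRNA 2 (median 0.14) and 14 higher and 10 lower with gRNA 10 (median 0.30).

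DU145 was evenly split over the mesenchymal list, with 7 higher and 8 lower of 22 with gRNA 2 (median -0.02) and 7 higher and 6 lower with gRNA 10 (median -0.06). TNC rose with gRNA 2 from 2.29 ± 0.0677 to 74.0 ± 5.23 CPM (5.02, SE 0.111, adjusted p = 3.04e-09, edgeR), and with gRNA 10 by 2.12. The smooth muscle gene TAGLN fell with both (-1.71 and -1.42).

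Transcription factors beside the 10 genes gave small counts. Of 9 other EMT transcription factors tested in 22Rv1, 4 rose and 1 fell with gRNA 1, and 2 rose and 1 fell with gRNA 10; LEF1, a Wnt effector, rose by 2.35 and 2.37. In DU145, 2 rose and 1 fell with gRNA 2 and 4 rose and none fell with gRNA 10, SNAI1 (Snail) being higher with both (0.92 and 0.53). Of 8 in PC3, 2 rose and 2 fell with gRNA 2 and 3 rose and 3 fell with gRNA 10. Among epithelial factors in 22Rv1, the ETS factor EHF fell from 401 ± 20.5 to 49.1 ± 17.3 CPM with gRNA 1 and 117 ± 5.69 with gRNA 10, while OVOL1 and ELF3 rose with both, within 5 higher and 4 lower of 10 with gRNA 1 and 3 higher and 4 lower with gRNA 10. The same list had 2 higher and 1 lower, then 3 higher and 2 lower, of 9 in DU145, and 2 higher and 3 lower, then 4 and 4, of 9 in PC3. Without gRNA 1 replicate 3, 5 of the other EMT factors were called in 22Rv1 with gRNA 10, and without gRNA 2 replicate 3, 7 were called in DU145 with gRNA 10. Epithelial factors called in DU145 with gRNA 10 dropped to 3 without any single control library or without gRNA 10 replicate 1 or 2.

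Among genes of the TGF-beta pathway, a classical inducer of the transition, PC3 with gRNA 2 had 11 of 16 tested genes higher and 3 lower (median 0.52), where 32.1% of all genes were higher and 31.5% lower. TGFB2, a ligand, rose there by 3.43 and the co-receptor endoglin (ENG) went from 3.67 ± 0.196 to 18.9 ± 1.36 CPM. With gRNA 10, 9 rose and 5 fell (37.9% and 35.6% of all genes). In 22Rv1, PMEPA1, an inhibitor of the pathway that is itself one of its targets, fell from 881 ± 40.9 to 87.6 ± 18.2 CPM with gRNA 1 and 128 ± 5.82 with gRNA 10, within 4 higher and 6 lower of 15 genes and 3 higher and 5 lower. In DU145, TGFB2 fell with both guides (-2.19 and -3.10) and PMEPA1 rose with both (1.59 and 2.25), within 3 higher and 3 lower of 16 genes with gRNA 2 and 6 higher and 2 lower with gRNA 10. Leaving out single libraries moved 2 of these totals: 5 genes were called in 22Rv1 without gRNA 10 replicate 1 or 3, and 3 in DU145 with gRNA 2 without control replicate 1 or 3.

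Cadherin partners and splicing regulators leaned downwards in 22Rv1. Of 14 partners, 7 fell and 1 rose with gRNA 1 (22.9% of all genes fell) and 5 fell and 2 rose with gRNA 10, and beta-catenin (CTNNB1) went from 755 ± 27.2 to 376 ± 64.2 and 388 ± 5.64 CPM. Of 11 other splicing regulators, 8 fell and none rose with gRNA 1, and 6 fell and 1 rose with gRNA 10 (20.6% of all genes fell). In PC3, CTNNB1 rose with both guides (0.42 and 0.49), plakoglobin (JUP) fell with gRNA 2 (-0.68), and 5 partners rose and 4 fell of 12 with gRNA 2, 5 and 2 with gRNA 10. The same splicing list had 5 higher and 3 lower of 12 in PC3 with gRNA 2 and 6 and 2 with gRNA 10, the splicing factor RBM47 being higher with gRNA 2 (1.12) and lower with gRNA 10 (-0.22). DU145 had 1 partner higher and 4 lower of 11 with gRNA 2, 2 and 1 with gRNA 10, and no splicing regulator higher and 3 lower of 12 with gRNA 2, 1 and 3 with gRNA 10.

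These 2 lists were sensitive to single libraries. Without gRNA 1 replicate 3, 11 partners were called in 22Rv1 with gRNA 10, and 4 splicing regulators without gRNA 10 replicate 1 or 2. In DU145 with gRNA 2, 3 partners were called without any single control library or without gRNA 10 replicate 2 or 3, and 5 and 6 splicing regulators without gRNA 2 replicate 2 and replicate 3. In DU145 with gRNA 10, 8 partners and 8 splicing regulators were called without gRNA 2 replicate 3, and 2 splicing regulators without control replicate 1 or 3 or any single gRNA 10 library. Of the 12 corepressors that ZEB and SNAI proteins recruit, such as CTBP2 and the histone demethylase KDM1A, 3 rose and 5 fell in 22Rv1 with gRNA 1 and 2 and 3 with gRNA 10. DU145 had 2 and 2, then 2 and 5, and PC3 had 4 and 4, then 8 and 2.

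**Figure D4:**
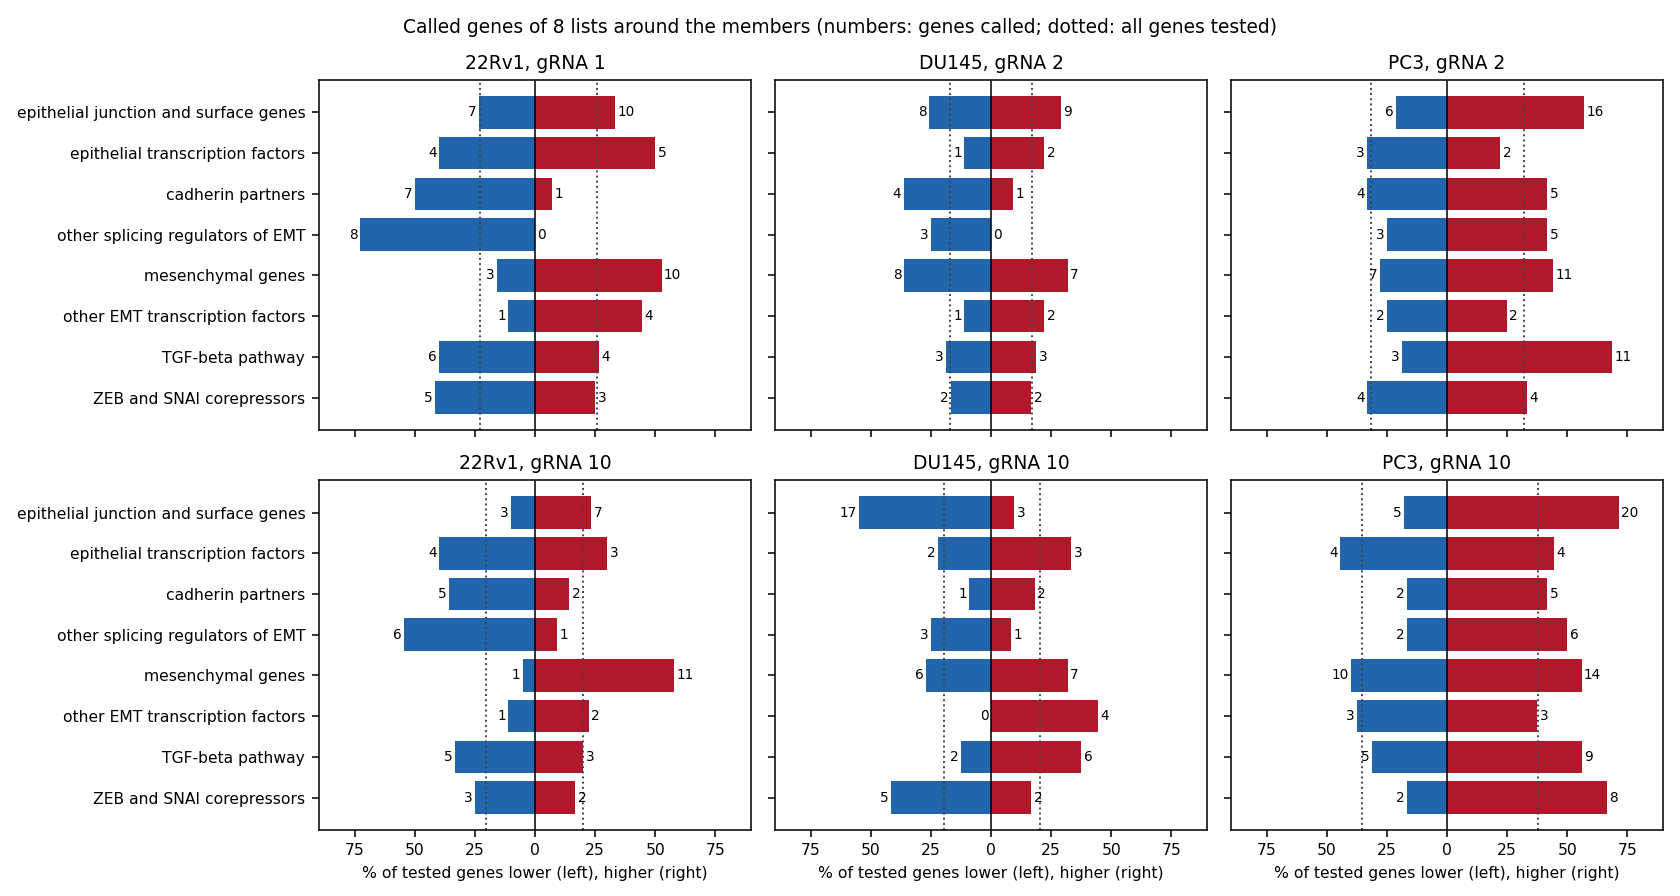
Share of tested genes called higher (right, red) or lower (left, blue) in 8 lists, by line and guide, with the number called at each bar end; dotted lines mark the share over all genes tested. Junction and surface genes reach 20 higher in PC3 with gRNA 10 and 17 lower in DU145 with gRNA 10.

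Markers of other cell types were read beside these changes. In PC3, the summed level of 6 fibroblast markers was 50.9 to 52.9 CPM in controls, 13.1 to 15.8 with gRNA 2 and 18.2 to 20.98 with gRNA 10, made up mainly of COL3A1, and 3 of the 6 were at 1 CPM or more in the controls. DCN, LUM and FAP were at or near 0 in every PC3 group. PDGFRA was at 11.4 CPM in controls, 1.42 with gRNA 2 and 0.545 with gRNA 10, and PDGFRB at 1.35, 0.245 and 0.0851. The 4 endothelial markers summed to 3.20 to 3.89 CPM in controls, 22.6 to 24.8 with gRNA 2 and 50.4 to 56.4 with gRNA 10. In each group 2 of the 4 were at 1 CPM or more. KDR was at 1.35, 13.7 and 46.3 CPM in the same order, and PECAM1 at 2.03, 9.77 and 7.46. CDH5 and VWF were at or near 0 in every PC3 group. The 6 luminal markers summed to 1597 to 1659.7 CPM in controls, 1084 to 1124 with gRNA 2 and 1231 to 1289 with gRNA 10. Their part in the changes of ZEB2, SNAI2 and ESRP1 was not tested, and in bulk RNA more cells expressing a gene and more RNA per cell cannot be told apart.

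Each gene's pattern was last compared with that of all genes tested, as the correlation over 27 libraries after the mean of each line was removed. These values describe libraries that share guides and lines, and no test was made. The closest genes were PSAT1 for CDH1 (Pearson r 0.80), SBSPON for CDH2 (0.96), FHL1 for ZEB1 (0.88) and PDE1C for ZEB2 (0.94). They were PRICKLE1 for SNAI2 (0.84), ZCCHC4 for EPCAM (0.90), SULT1A1 for ESRP1 (0.96), WDR74 for ESRP2 (0.93) and EDRF1 for GRHL2 (0.77). Among the 10 genes themselves, EPCAM and ESRP2 were the closest pair (0.88), and ESRP1 and ZEB2 were the most opposed (-0.78). ZEB2 and SNAI2 had 0.52, CDH1 and CDH2 -0.38, and CDH1 and ZEB1 -0.33.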

How the data were processed

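Total RNA of the 27 cell line samples was made into strand-specific mRNA libraries and sequenced in pairs of 150 bases on a DNBseq platform, per the labels' protocols. The authors deposited raw counts per gene symbol, 1 table per line, per the file headers. FastQC, STAR, edgeR and hg38 are listed in the submitters' processing notes; the counting program, annotation and filters are not given in the sources used here. Symbols listed more than once (6, 2 and 2) were summed. No value column was left out.

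Each line's 9 libraries were fitted with edgeR 4.0.16 (R 4.3.3) by the quasi-likelihood test, two-sided and robust, with TMM factors and filterByExpr (minimum count 10, minimum total 15), leaving 15198, 14908 and 14718 genes; adjusted p-values are Benjamini-Hochberg over all of them, with a threshold of 0.05. Counts joined by symbol (20089) were fitted for control lines (15424 genes tested) and between-line differences (16324). Standard errors came from the F statistic. Groups averaging under 5 counts are given as ratios with exact 95% intervals. CPM use TMM factors over all libraries (0.907 to 1.09), and lengths are GENCODE 29 exon unions. The fits were also run on simulated counts with the same spread in every line and few changed genes, unlike these data, so nothing is read from that run.

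The 10 genes, the lists and the tests were chosen with earlier results of these data known. From each list, up to 2 risers and 2 fallers per contrast may be named, the largest among called genes of at least 5 CPM whose groups did not overlap. Alternatives were RLE factors, DESeq2 1.42.0, no or stricter filters, a replicate block, 2-group fits, leaving out libraries, gRNA 10 alone and another gene length. Some genes are not reported here.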

Additional observations from a re-analysis of the deposited data

Results flagged for a closer look

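The knockout change, as the mean of both guides minus control, differed between lines for 10 pairs of gene and lines by the edgeR test of the difference itself. Between 22Rv1 and DU145 these were VIM (-1.05, adjusted p = 1.74e-05) and ZEB1 (-1.01, adjusted p = 0.0462). VIM fell with both guides in 22Rv1 and was higher with gRNA 2 in DU145. Between 22Rv1 and PC3 they were CDH2 (2.59, adjusted p = 2.96e-08), VIM (-0.94, adjusted p = 7.24e-05), ZEB1 (-1.12, adjusted p = 0.0284), EPCAM (0.90, adjusted p = 0.00428), ESRP1 (-4.79, adjusted p = 1.39e-06) and GRHL2 (-1.87, adjusted p = 0.000363). In PC3, GRHL2 had few counts in every group, and ESRP1 had few with the control guide and gRNA 2. Without both libraries that stand apart, the ZEB1 difference between 22Rv1 and PC3 was -1.16 (adjusted p = 0.0521). That call was also lost without 22Rv1 control replicate 1 (-0.95, adjusted p = 0.112) or 2 (-1.03, adjusted p = 0.0878), 22Rv1 gRNA 1 replicate 1 (-0.98, adjusted p = 0.0538) or 22Rv1 gRNA 10 replicate 1 (-0.84, adjusted p = 0.0773). Between DU145 and PC3 they were EPCAM (0.73, adjusted p = 0.0198) and ESRP1 (-4.91, adjusted p = 1.51e-06). The EPCAM difference between DU145 and PC3 rests on gRNA 2: with gRNA 10 alone it was -0.40 (adjusted p = 0.263). With both guides but without both libraries that stand apart, the EPCAM difference was 0.46 (adjusted p = 0.000128).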

How the results depend on the processing

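Of the alternatives for the log2 changes of the 10 genes, 2155 kept direction and side of the threshold, 35 newly passed it, 73 no longer passed it and 20 changed sign. The number of genes called in DU145 with gRNA 10 was 5 in a fit of the 2 groups alone and 2 to 5 when 1 library was left out, and with gRNA 2 it was 3 to 7. Requiring 10 counts in every library left fewer genes to test, so 3, 4 and 4 differed between the controls (22Rv1 and DU145, 22Rv1 and PC3, DU145 and PC3) and 1, 2 and 1 between the knockout changes of those pairs. For the change of 22Rv1 against DU145, 1 gene was called with no filter, 1 with the replicate block, 5 with gRNA 10 alone and 1 to 4 when 1 library was left out. Signs turned, in values not called with all libraries unless named, for ESRP2 in 22Rv1 gRNA 1 (-0.047 with no filter, -0.000986 with the block). With gRNA 10 alone they turned for CDH1 between 22Rv1 and DU145 (0.56) and, between DU145 and PC3, for ZEB1 (0.21), ZEB2 (2.24, adjusted p = 1.45e-05, edgeR), SNAI2 (0.72), EPCAM (-0.40, called with both guides) and ESRP2 (-0.12). Without both libraries that stand apart, VIM between DU145 and PC3 was -0.0366. Leaving out 1 library gave -0.37 to 0.12 for ZEB1 and -0.18 to 0.10 for ESRP2 in 22Rv1 gRNA 1, -0.0631 to 0.0664 for ZEB1 in DU145 gRNA 10, -0.13 to 0.0288 for EPCAM between 22Rv1 and DU145 controls, and, between DU145 and PC3, -0.0372 to 0.20 for VIM and -0.19 to 0.00138 for ZEB1. The cause was not tested. Fitting all 27 libraries ended the control differences of EPCAM (22Rv1 and PC3, DU145 and PC3), CDH1 and SNAI2 (DU145 and PC3). Same-numbered samples deviated together with correlations from -0.267 to 0.410, not above 0.1 in every pair, so the numbers were not taken as pairs. Depth limits ESRP1 in PC3 controls, GRHL2 in DU145 and PC3 and the repressors in 22Rv1 to counts near the floor.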
